A study of Mus musculus with 6 samples.

Results

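Oxidative phosphorylation genes made up 110 of the 31053 features counted in 6 single-cell libraries of mouse colon tumours, 97 of them nuclear and 13 encoded in mitochondrial DNA. They were taken by symbol and not by any measured value. The rule took names beginning Nduf, Uqcr, Atp5, Cox4i, Cox5, Cox6, Cox7 or Cox8, the genes Sdha, Sdhb, Sdhc, Sdhd, Cyc1, Cycs, Slc25a4 and Slc25a5, and names beginning mt-Nd, mt-Co, mt-Atp or mt-Cytb. Symbols ending in -ps were left out. The 3 libraries labelled Apc ICI came from VilCreER Apcfl/fl mice whose colonic submucosa received a single injection of 70 µl of 100 µM 4-OH tamoxifen, and their label gives no further treatment. The 3 libraries labelled AOM PN came from VilcreER P53fl/fl Notch1Tg mice given 2 mg tamoxifen into the peritoneum, then the carcinogen AOM at 10 mg/kg each week for 6 weeks, starting 4 days later. In both models the villin promoter drives the inducible Cre, so recombination is directed to the epithelium, and every mouse was male and was culled at clinical endpoint. Whole tumours were dissociated, dead cells were removed by a DAPI sort, and 10x 3′ libraries were made. Alleles, carcinogen, route of induction and group label (Intracolonic Induction or Ageing Tumor) differ together and cannot be told apart. The labels do not say that the libraries of a group are separate animals, so every p-value measures only the spread between these libraries.

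The respiratory chain passes electrons from NADH (complex I) and succinate (complex II) through complex III, cytochrome c and complex IV to oxygen, and pumps protons across the inner mitochondrial membrane. ATP synthase uses the proton gradient to make ATP, and the ADP/ATP carriers exchange it for ADP across that membrane. Mitochondrial DNA encodes core subunits of complexes I, III, IV and ATP synthase, whereas all subunits of complex II, cytochrome c and the carriers are nuclear, so the chain needs transcripts from both genomes. Colon epithelium relies on this chain to burn butyrate, and mature neutrophils are known for few mitochondria and for glycolysis.

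The libraries held 59309093 to 98583066 UMIs over 6873 to 16137 barcodes, and 46062 of 64505 barcodes were kept and clustered. Clusters were named by markers as epithelial-like (455 to 961 cells per library), neutrophil-like (1351 to 3805), monocyte/macrophage-like (456 to 2392), T/NK-like (158 to 1614), dendritic-like (74 to 684), B-like (32 to 312) and erythroid-like (73 to 1951). Mast-like cells (14 to 21 per Apc ICI library) were too few to compare. Pairs of libraries shared 10 to 52 barcodes. The genes altered in the models were checked in the epithelial-like class. Trp53 was at 139, 148 and 140.2 against 42.3, 61.1 and 54.4 CPM (Apc ICI replicates 1, 2 and 3 against AOM PN replicates 1, 2 and 3, the order of all values here). Notch1 was at 36.7, 37.4 and 28.04 against 58.9, 44.9 and 115 CPM and Apc at 87.2, 72.3 and 80.1 against 58.9, 54.6 and 88.8 CPM, and 3′ reads of Apc may lie outside its deleted part. Epithelial-like cells of AOM PN 3 and neutrophil-like cells of AOM PN 1 stood apart in mitochondrial UMIs, and results that rest on them are given with and without them. CPM below are UMIs per 1000000 of the class's UMIs in a library, scaled by edgeR's TMM factors unless called unscaled. Each UMI stands for 1 captured 3′ end, so CPM was not divided by gene length.

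By summed UMIs, epithelial-like cells carried the most mitochondrial transcripts of the 7 classes and neutrophil-like cells the fewest. The nuclear members followed another order below the epithelium. Haemoglobin was left out of these totals, since it made up most UMIs of erythroid-like cells. Nuclear members summed to 2.74% ± 0.72 of UMIs in epithelial-like cells (SD over 6 libraries). They summed to 2.48% ± 0.09 in dendritic-like, 2.38% ± 0.13 in T/NK-like and 2.17% ± 0.11 in monocyte/macrophage-like cells. Below these came erythroid-like cells at 1.93% ± 0.27, B-like cells at 1.58% ± 0.13 and neutrophil-like cells at 0.71% ± 0.10. The ranges of neighbours in this order overlapped except between B-like and neutrophil-like cells. Mitochondrial members summed to 4.38% ± 1.09 in epithelial-like cells, 2.66% ± 0.20 in B-like and 2.50% ± 0.54 in erythroid-like cells. They summed to 1.89% ± 0.20 in T/NK-like, 1.56% ± 0.22 in monocyte/macrophage-like, 1.46% ± 0.16 in dendritic-like and 0.47% ± 0.19 in neutrophil-like cells. In this order only epithelial-like and B-like cells, and dendritic-like and neutrophil-like cells, had neighbouring ranges that did not overlap. B-like cells were thus the sixth class by nuclear members and came directly after the epithelium by mitochondrial members, and dendritic-like cells the reverse. All 13 mitochondrial members had their highest class mean in epithelial-like cells. Among the 92 nuclear members that reached 5 CPM in some class, 51 were highest in epithelial-like, 14 in dendritic-like, 11 in erythroid-like, 10 in T/NK-like, 3 in monocyte/macrophage-like, 2 in B-like and 1 in neutrophil-like cells. Sums weigh deep barcodes most, and the median cell gave another order in some libraries. The median mitochondrial share per cell, haemoglobin included, was 3.04, 2.58 and 1.43 against 0.816, 1.59 and 2.78% in epithelial-like cells. In B-like cells it was 2.60, 2.40 and 2.54 against 2.61, 2.49 and 2.34%. The median nuclear share was 2.30, 2.80 and 2.70 against 1.09, 0.785 and 0.600% in epithelial-like and 1.35, 1.47 and 1.47 against 1.64, 1.50 and 1.58% in B-like cells.

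**Figure D1:**
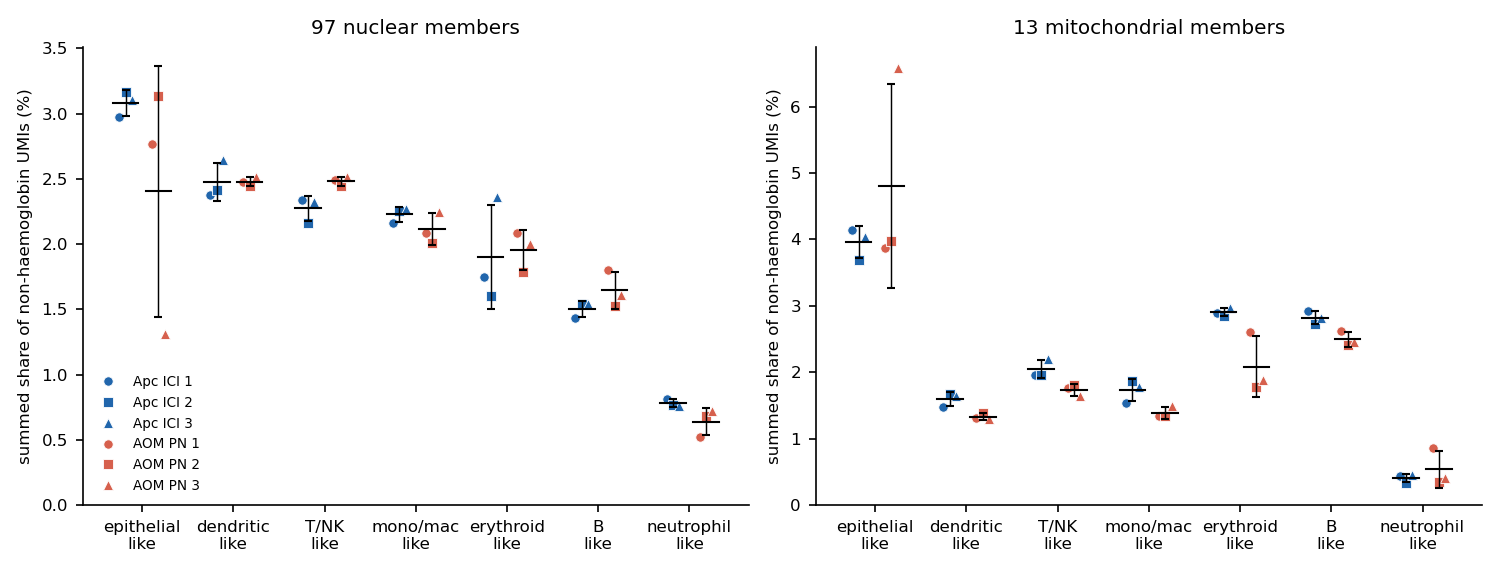
Share of UMIs (percent, haemoglobin left out) from nuclear and from mitochondrial oxidative phosphorylation genes in each of 7 cell classes; each point is 1 library, coloured by group, with the group mean (line) and SD (bar). Neutrophil-like cells are lowest by both measures, and the epithelial-like point of AOM PN 3 lies apart, low for nuclear and high for mitochondrial members.

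The balance between the 2 genomes differed between the tumour models in 5 of the 7 classes. All classes come from the same 6 libraries, so they are not independent of each other. The ratio of mitochondrial to nuclear UMIs was lower in every AOM PN library than in any Apc ICI library in T/NK-like, monocyte/macrophage-like, dendritic-like, B-like and erythroid-like cells. In T/NK-like cells it was 0.840, 0.907 and 0.947 against 0.707, 0.738 and 0.651. Both sides of that ratio were apart there, again with haemoglobin left out. The nuclear share was 2.34, 2.16 and 2.32 against 2.49, 2.44 and 2.51%, or 2.27% ± 0.0985 (SD, n = 3) in Apc ICI and 2.48% ± 0.0348 (SD, n = 3) in AOM PN, and AOM PN was higher. The mitochondrial share was 1.96, 1.96 and 2.20 against 1.76, 1.80 and 1.64%, lower in AOM PN. Pooled over libraries and with haemoglobin included, each of the 4 clusters of this class had a higher nuclear and a lower mitochondrial share in AOM PN. Erythroid markers in T/NK-like cells had a mean of 45211 CPM in Apc ICI and 20972 CPM in AOM PN, with overlap, and their part was not tested. In the other 4 classes, with haemoglobin left out, the mitochondrial share alone was apart between the groups. Monocyte/macrophage-like cells had 1.54, 1.87 and 1.78 against 1.34, 1.33 and 1.50% and dendritic-like cells 1.48, 1.67 and 1.64 against 1.31, 1.39 and 1.30%. B-like cells had 2.93, 2.73 and 2.81 against 2.63, 2.41 and 2.45% and erythroid-like cells 2.90, 2.85 and 2.97 against 2.61, 1.77 and 1.88%. The AOM PN libraries were the low ones each time, while the nuclear shares of these 4 classes overlapped. The separation in B-like cells was lost at no more than 10% mitochondrial UMIs, at 2.58, 2.42 and 2.74 against 2.63, 2.41 and 2.43%, when cells were thinned to 1500 UMIs and with doublets kept. In erythroid-like cells it was lost at 10%, with no mitochondrial cutoff and with doublets kept. The ratio overlapped in B-like cells at 10% and when thinned, in dendritic-like cells at 10%, and in erythroid-like cells with no cutoff and with doublets kept.

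Other values moved with these shares. Monocyte/macrophage-like cells came from different clusters in the groups. A cluster led by Apoe and C1qa held 51.6% of Apc ICI and 12.8% of AOM PN cells, with a mitochondrial share of 2.23% and 1.48%, haemoglobin included. Mast markers summed to 80.3 to 138 CPM across Apc ICI libraries, against 206 to 1869.8 CPM across AOM PN libraries in T/NK-like cells and to 14.1 to 51.2 CPM across Apc ICI libraries, against 126 to 1329 CPM across AOM PN libraries in monocyte/macrophage-like cells. In dendritic-like cells they summed to 77.2 to 97.4 CPM across Apc ICI libraries, against 597 to 1437 CPM across AOM PN libraries, and in B-like cells to 23.8 to 66.7 CPM across Apc ICI libraries, against 807 to 2252 CPM across AOM PN libraries. Erythroid markers summed to 24080.2 to 59467 CPM across Apc ICI libraries, against 1145 to 23857 CPM across AOM PN libraries in monocyte/macrophage-like cells. The part of these values was not tested. Epithelial-like and neutrophil-like ratios overlapped, at 1.39, 1.17 and 1.30 against 1.40, 1.27 and 5.02 and 0.532, 0.441 and 0.595 against 1.65, 0.514 and 0.563, with AOM PN 3 and AOM PN 1 as the high values. These sums carry no test, and a lower share of a transcript and a higher share of other RNA cannot be told apart.

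Among the mitochondrial transcripts themselves, the shares of some genes were apart between the groups in several classes. Shares of mitochondrial UMIs did not overlap between the groups in 6 classes for mt-Nd3 and mt-Atp6, in 5 for mt-Nd4l and in 4 each for mt-Nd5 and mt-Nd6. The classes come from the same 6 libraries, so they are not independent, and no rate of such separation over other genes is given. These counts are therefore a description and do not show that the mix differs by more than the spread between libraries. The coding ends of these mitochondrial genes are printed because a 3′ library reads the ends of transcripts. An oligo-dT primer can also bind a run of A inside transcripts. The ends are the last 60 bases from GENCODE vM21 transcripts on GRCm38, 5′ to 3′, with the longest run of A in capitals.
mt-Nd3 coding end, chrM:9747-9806, plus strand: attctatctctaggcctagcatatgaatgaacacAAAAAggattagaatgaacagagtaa
mt-Atp6 coding end, chrM:8548-8607, plus strand: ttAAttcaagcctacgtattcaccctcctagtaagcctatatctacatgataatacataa
mt-Nd4l coding end, chrM:10114-10173, plus strand: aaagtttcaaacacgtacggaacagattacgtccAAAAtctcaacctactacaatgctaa
mt-Nd5 coding end, chrM:13506-13565, plus strand: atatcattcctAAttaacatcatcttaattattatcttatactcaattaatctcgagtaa
mt-Nd6 coding end, chrM:13552-13611, minus strand: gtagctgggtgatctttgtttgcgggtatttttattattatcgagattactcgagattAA
The run of A is 2 bases in mt-Nd5, 5 in mt-Nd3, 4 in mt-Nd4l and 2 in mt-Atp6 and mt-Nd6. The mt-Nd4l end at 10173 overlaps the start of mt-Nd4 at 10167, and mt-Atp6 ends at the base where mt-Co3 starts (8607). Reads at these junctions may be counted for either neighbour. mt-Nd6 lies over the end of mt-Nd5 at 13565 but on the other strand, so counting by strand keeps that pair apart. The part of these features in the counts was not tested.

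mt-Nd3, a small core subunit of complex I, took a lower share of mitochondrial UMIs in AOM PN. In epithelial-like cells that share was 1.37, 0.863 and 1.04% against 0.453, 0.604 and 0.533%, and in neutrophil-like cells 1.21, 0.772 and 0.890% against 0.433, 0.705 and 0.497%. Each AOM PN library was below each Apc ICI library in both. The same separation held in monocyte/macrophage-like cells (1.21, 0.884 and 0.977% against 0.477, 0.772 and 0.664%), dendritic-like cells, B-like cells and erythroid-like cells. T/NK-like cells overlapped by 1 library, at 1.47, 0.837 and 1.14% against 0.551, 0.853 and 0.570%. mt-Atp6, the proton channel subunit of ATP synthase, was the lower one in AOM PN in 6 of 7 classes without overlap, for example 15.2, 15.3 and 14.9% against 13.7, 14.1 and 13.9% in epithelial-like and 16.4, 15.8 and 14.9% against 13.8, 13.7 and 12.96% in neutrophil-like cells. In the other direction, mt-Nd4l, a membrane subunit of complex I, took 0.981, 0.696 and 0.865% against 1.26, 1.28 and 1.35% of epithelial mitochondrial UMIs. Its AOM PN values were above all Apc ICI values in epithelial-like, neutrophil-like, monocyte/macrophage-like, T/NK-like and dendritic-like cells. mt-Nd5 and mt-Nd6, 2 further membrane subunits, took 1.62, 1.49 and 1.62% against 2.19, 2.25 and 2.50% and 0.1003, 0.0794 and 0.101% against 0.153, 0.176 and 0.158% in epithelial-like cells, higher in AOM PN, as they were in monocyte/macrophage-like and dendritic-like cells. mt-Nd2, another membrane subunit of complex I, took 2.74, 2.72 and 2.81% against 3.94, 3.85 and 4.02% in epithelial-like cells, and mt-Co1, the catalytic subunit of complex IV, 24.3, 24.3 and 23.7% against 21.7, 22.6 and 22.8%. A complex I transcript was thus higher and a complex IV transcript lower, with no overlap in either, and mt-Co1 was apart in no other class. These shares sum to a whole within a library, so a rise in 1 gene lowers the others, and they carry no test.

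**Figure D2:**
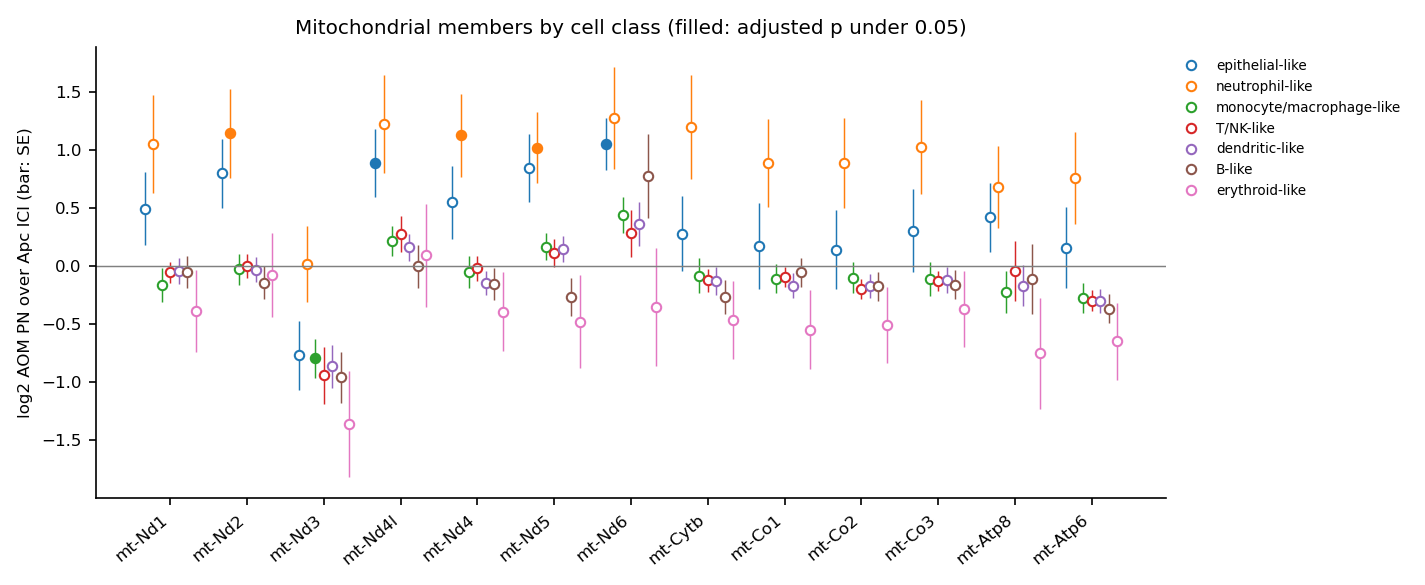
Difference between AOM PN and Apc ICI for each mitochondrially encoded gene (log2, edgeR fit, bar = SE) in 7 cell classes; filled marks passed the threshold of adjusted p 0.05. mt-Nd3 lies below the other mitochondrial genes in each class, and in neutrophil-like cells it is at 0.02 where mt-Nd4 is at 1.13.

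Tested against library spread over all genes, mt-Nd3 passed in 1 class. In monocyte/macrophage-like cells it was at 170.1, 148 and 162 CPM in Apc ICI 1 to 3 and at 69.3, 106 and 101 CPM in AOM PN 1 to 3 (log2 change -0.80 ± 0.17 (SE), edgeR's quasi-likelihood adjusted p = 0.0384). Every AOM PN value was below every Apc ICI value, and the call was lost when any 1 Apc ICI library was left out. The log2 change of mt-Nd3 was -0.77 in epithelial-like, -0.94 in T/NK-like, -0.86 in dendritic-like, -0.96 in B-like and -1.36 in erythroid-like cells, none of which passed. In neutrophil-like cells it was 0.02, a value that turned negative under several alternatives (closing section).

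In epithelial-like cells, the carrier gene Slc25a4 fell 9.27-fold in AOM PN while the direction of most other nuclear members depended on which barcodes were counted. Slc25a4 encodes the ADP/ATP carrier known from heart and muscle. It was at 297, 306 and 259 CPM in Apc ICI 1 to 3 and at 30.7, 33.2 and 28.5 CPM in AOM PN 1 to 3 (log2 change -3.21 ± 0.23 (SE), edgeR's quasi-likelihood adjusted p = 5.51e-05). The groups were far apart and each was tight. It was lower under all 18 alternatives, with log2 changes from -3.47 to -1.90, the last in barcodes of at least 5000 UMIs with doublets kept. Its partner Slc25a5, the carrier of proliferating tissue, was at 473, 591 and 499 against 668, 799 and 201 CPM (log2 change 0.10 ± 0.44 (SE), edgeR's quasi-likelihood adjusted p = 0.888), where AOM PN 3 was the lowest value and the other AOM PN libraries the highest. Slc25a5 took 61.4, 65.9 and 65.8% against 95.6, 96.01 and 87.6% of the UMIs of the pair, higher in each AOM PN library. Their promoters are printed because the pair is the clearest contrast of the set. They run from 250 bases before to 50 bases after the start in RefSeq's GRCm38.p6 table, 5′ to 3′ on the gene's strand, with each match to the 6 motifs searched (listed at the end) in capitals. Slc25a4 holds the ETS/GABPA core CCGGAAG and 2 copies of CCAAT.
Slc25a4 promoter, chr8:46211013-46211312, minus strand: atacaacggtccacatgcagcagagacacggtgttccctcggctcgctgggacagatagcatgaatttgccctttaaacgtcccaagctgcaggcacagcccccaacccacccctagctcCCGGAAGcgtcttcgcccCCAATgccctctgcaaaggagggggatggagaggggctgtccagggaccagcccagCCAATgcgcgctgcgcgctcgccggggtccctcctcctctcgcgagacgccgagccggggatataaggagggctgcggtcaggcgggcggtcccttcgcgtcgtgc
Slc25a5 promoter, chrX:36795347-36795646, plus strand: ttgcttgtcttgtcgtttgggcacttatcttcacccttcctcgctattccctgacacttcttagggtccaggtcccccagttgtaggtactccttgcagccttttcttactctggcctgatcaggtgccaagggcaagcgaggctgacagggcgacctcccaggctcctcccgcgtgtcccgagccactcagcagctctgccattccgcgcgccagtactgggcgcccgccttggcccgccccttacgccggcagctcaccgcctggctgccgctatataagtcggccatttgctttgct
None of the 6 motifs searched was found in the Slc25a5 window, which says only that these letters are not there.

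In the other classes the pair gave other values. In neutrophil-like cells Slc25a4 was at 3.81, 8.78 and 4.73 against 2.56, 0.863 and 1.97 CPM on 225 UMIs in all (log2 change -1.81 ± 0.45 (SE), edgeR's quasi-likelihood adjusted p = 0.0154), and Slc25a5 at 55.2, 56.3 and 70.6 against 103, 112 and 112 CPM (log2 change 0.84 ± 0.16 (SE), edgeR's quasi-likelihood adjusted p = 0.00561). So 1 carrier fell and the other rose, with no overlap in either. Slc25a5 took 93.5, 86.5 and 93.7% against 97.6, 99.2 and 98.3% of the pair in neutrophil-like cells and 63.9, 65.1 and 63.7% against 68.2, 65.2 and 69.2% in dendritic-like cells. In both, as in monocyte/macrophage-like cells, AOM PN was higher. The pair went the other way, with 73.6, 71.5 and 80.2% against 69.2, 69.5 and 67.2% in B-like cells. T/NK-like cells had 57.1, 60.8 and 54.6% against 58.99, 60.1 and 59.9%, with overlap. The AOM PN minus Apc ICI change of Slc25a4 differed from that in epithelial-like cells by 1.50 in neutrophil-like and 2.96 in monocyte/macrophage-like cells on the log2 scale. With doublets kept, a choice made for this test after seeing the data, these differences were 0.95 (edgeR's quasi-likelihood adjusted p = 0.0937, past the threshold no longer) and 1.90 (closing section). Capture can differ between genes, so a share of a pair is compared between libraries and is no ratio of transcripts.

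**Figure D3:**
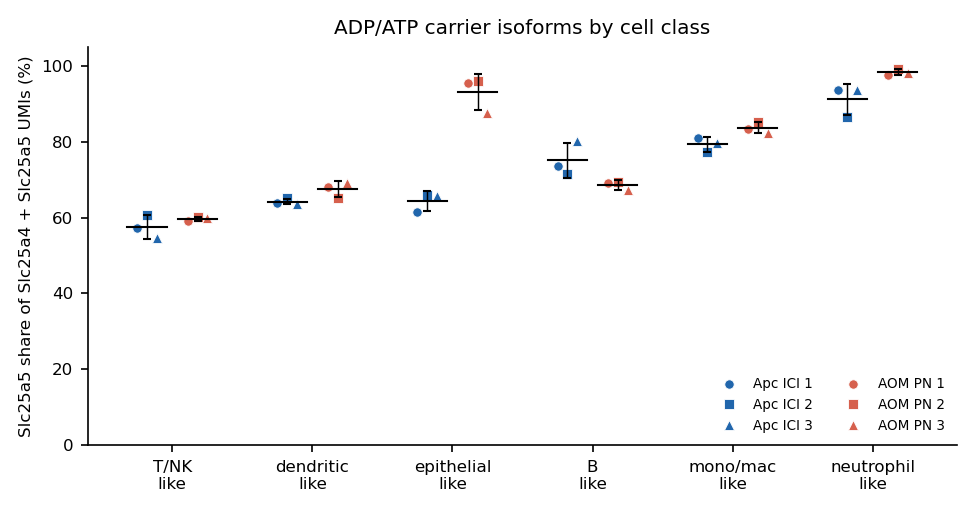
Share of Slc25a5 in the summed UMIs of the ADP/ATP carrier genes Slc25a4 and Slc25a5 (percent) by cell class; each point is 1 library, the line is the group mean and the bar its SD. In epithelial-like cells the AOM PN libraries lie between 87.6 and 96.0% and the Apc ICI libraries between 61.4 and 65.9%, while T/NK-like cells overlap.

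For the set as a whole, 0 of 91 nuclear members tested in epithelial-like cells rose and 5 fell, against 18.5% and 15.5% of all genes tested. The median log2 change of nuclear members was -0.28, beside -0.05 over all genes, and 73 of the 91 were negative. An unadjusted p under 0.05 was reached by 10 members, and DESeq2 called 0 higher and 6 lower. This direction rested on AOM PN 3. Without it 7 rose, 10 fell and the median was 0.06. The nuclear share was 2.89, 3.13 and 2.87 against 2.56, 3.01 and 1.30%, and AOM PN 3 was far below the others.

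The called nuclear genes besides Slc25a4 were 3 with complex I symbols and an assembly factor. Ndufa4l2, a hypoxia-induced relative of Ndufa4, was at 11.7, 18.7 and 4.62 CPM in Apc ICI 1 to 3 and at 2.12, 3.41 and 3.93 CPM in AOM PN 1 to 3 (log2 change -1.96 ± 0.57 (SE), edgeR's quasi-likelihood adjusted p = 0.0275). Ndufc2, an accessory subunit of the membrane arm, was at 476, 482 and 395 against 231, 254 and 76.5 CPM (log2 change -1.26 ± 0.40 (SE), edgeR's quasi-likelihood adjusted p = 0.038). Ndufa1, an accessory subunit needed for assembly of that arm, was at 329, 248 and 284 against 129.8, 205 and 72.6 CPM (log2 change -1.07 ± 0.35 (SE), edgeR's quasi-likelihood adjusted p = 0.0434). In all 3 every AOM PN library was below every Apc ICI library. Ndufaf3, a complex I assembly factor, was at 36.1, 45.04 and 53.4 against 28.1, 28.9 and 14.7 CPM (log2 change -0.85 ± 0.26 (SE), edgeR's quasi-likelihood adjusted p = 0.0347), also without overlap. Each of these 4 calls was lost when certain single libraries were left out. Ndufc2 and Ndufa1 lost theirs without Apc ICI 1, 2 or 3 or without AOM PN 1, and at no more than 10% mitochondrial UMIs. Their log2 changes shrank to as little as -0.29 and -0.20 in other sets of barcodes. Without the epithelial sub-clusters led by Gm26917 all 4 missed the threshold. Ndufa4l2 was lost without Apc ICI 1 or 2 or AOM PN 1 or 2, and Ndufaf3 without Apc ICI 2 or 3 or AOM PN 1 and with doublets kept. Ndufa4, now assigned to complex IV and with known pseudogenes that can take its reads, was at 824, 869 and 820.2 against 464, 580.2 and 172 CPM (log2 change -1.04 ± 0.41 (SE), edgeR's quasi-likelihood adjusted p = 0.0772) and missed the threshold.

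By complex, medians were negative in all but the assembly factors, and few members passed. Complex I had 3 of 38 lower (median -0.31), its assembly factors 1 of 8 lower (median 0.08), complex II a median of -0.41, complex III -0.05, complex IV -0.26 over 13 and ATP synthase -0.17 over 16. Representative subunits showed AOM PN 3 below the rest. Among complex IV genes, Cox4i1, its regulatory subunit, was at 932, 1185 and 1085 against 968, 964 and 422 CPM (log2 change -0.44 ± 0.36 (SE), edgeR's quasi-likelihood adjusted p = 0.369). The catalytic ATP synthase subunit Atp5b was at 769, 813 and 751 against 575, 672 and 248 CPM (log2 change -0.64 ± 0.36 (SE), edgeR's quasi-likelihood adjusted p = 0.207). Sdha, the flavoprotein of complex II, was at 78.8, 77.9 and 76.1 against 67.3, 69.8 and 32.4 CPM (log2 change -0.42 ± 0.26 (SE), edgeR's quasi-likelihood adjusted p = 0.247). In Cox4i1 the groups overlapped, and in Atp5b and Sdha they did not, but none passed. Core complex I genes Ndufv1 and Ndufs1, complex II gene Sdhb, and complex III genes Uqcrc1, Uqcrfs1 and Cyc1 had log2 changes between -0.34 and 0.04. Cox5a, Cox6c, Cox7a2, Cox8a, Atp5a1, Atp5g1 and Cycs had values between -0.59 and 0.16, with none passing.

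Mitochondrial members went the other way by their median in epithelial-like cells, at 0.42. Of the 13 members, 2 were called higher and 0 lower, against 18.5% and 15.5% of all genes. mt-Nd6, the subunit of complex I read from the light strand, was at 39.2, 28.3 and 39.1 CPM in Apc ICI 1 to 3 and at 60.9, 70.8 and 91.3 CPM in AOM PN 1 to 3 (log2 change 1.06 ± 0.22 (SE), edgeR's quasi-likelihood adjusted p = 0.00634). mt-Nd4l was at 383, 248 and 336 against 501, 514 and 781 CPM (log2 change 0.89 ± 0.29 (SE), edgeR's quasi-likelihood adjusted p = 0.0418). AOM PN 3 was highest in both and the groups did not overlap. An unadjusted p under 0.05 was reached by 5 of them, and DESeq2 called 5 higher and 1 lower. Without AOM PN 3, 4 were higher and 1 lower. In cells of no more than 10% mitochondrial UMIs the median was -0.045, with 6 of 13 positive, and 1 was called in each direction. mt-Nd4l lost its call at that cutoff, without any 1 Apc ICI library and without AOM PN 1. mt-Nd5 was at 633, 531 and 629 against 873, 907 and 1448 CPM (log2 change 0.85 ± 0.30 (SE), edgeR's quasi-likelihood adjusted p = 0.053) and mt-Nd3, in the opposite direction, at 535, 308 and 404 against 181, 243 and 308 CPM (log2 change -0.77 ± 0.30 (SE), edgeR's quasi-likelihood adjusted p = 0.0777). The remaining genes ranged from 0.14 to 0.80 and did not pass.

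Epithelial barcodes differed between the models in clusters, depth and quality. A cluster led by Gm26917 held 9.45% of Apc ICI and 67.5% of AOM PN cells of the class, and one led by Mt3 and Mt4 held 44.1% and 2.15%. Kept epithelial-like barcodes had a median of 4148, 5789 and 2893 UMIs in Apc ICI and 1195, 1809 and 1344 in AOM PN. The nuclear and ribosomal RNA-like transcript Gm26917 made up 0.191, 0.186 and 0.262% of their UMIs in Apc ICI and 2.80, 1.44 and 4.65% in AOM PN, with no overlap. Barcodes scored as doublets and removed numbered 168, 171 and 190 against 508, 166 and 225. Those removed barcodes were deep, with median UMI counts between 24790.0 and 32440.5 for Apc ICI, and between 7275 and 18531.5 for AOM PN. Immune transcripts also differed inside the class. Neutrophil markers summed to 298 to 818 CPM across Apc ICI libraries, against 5433 to 9161 CPM across AOM PN libraries, all 9 being higher and none at 0, and mast markers to 29.5 to 143 CPM across Apc ICI libraries, against 276 to 3549 CPM across AOM PN libraries. Their part in the results, and that of depth and Gm26917, was not tested.

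When doublets were kept, a setting planned as an alternative, nuclear members turned upward. Then 30 of 92 rose and 4 fell, against 21.6% and 20.3% of all genes, with a median of 0.26. Their share became 2.99, 3.12 and 3.03 against 3.59, 3.12 and 3.32%, which still overlapped, and AOM PN 3 no longer stood apart. Restricting the same barcodes to at least 5000 UMIs, a choice made after seeing the data, left 387, 669 and 428 cells in Apc ICI and 514, 248 and 185 in AOM PN. Of 92 nuclear members 66 then rose and 2 fell, against 21.8% and 21.3% of all genes, and 9 of 13 mitochondrial members rose and 1 fell. The nuclear share was 3.04, 3.16 and 3.07 against 3.82, 3.48 and 3.79% and the mitochondrial share 3.37, 3.44 and 3.34 against 3.74, 3.66 and 4.04%. Every AOM PN library was above every Apc ICI library in both, and the ratio of mitochondrial to nuclear was 1.11, 1.09 and 1.09 against 0.980, 1.05 and 1.06, slightly lower in AOM PN. The fitted median of nuclear members was 0.44, and 0.25 without TMM scaling, with 75 of 92 positive. Deep barcodes may hold more than 1 cell, which was not tested.

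**Figure D4:**
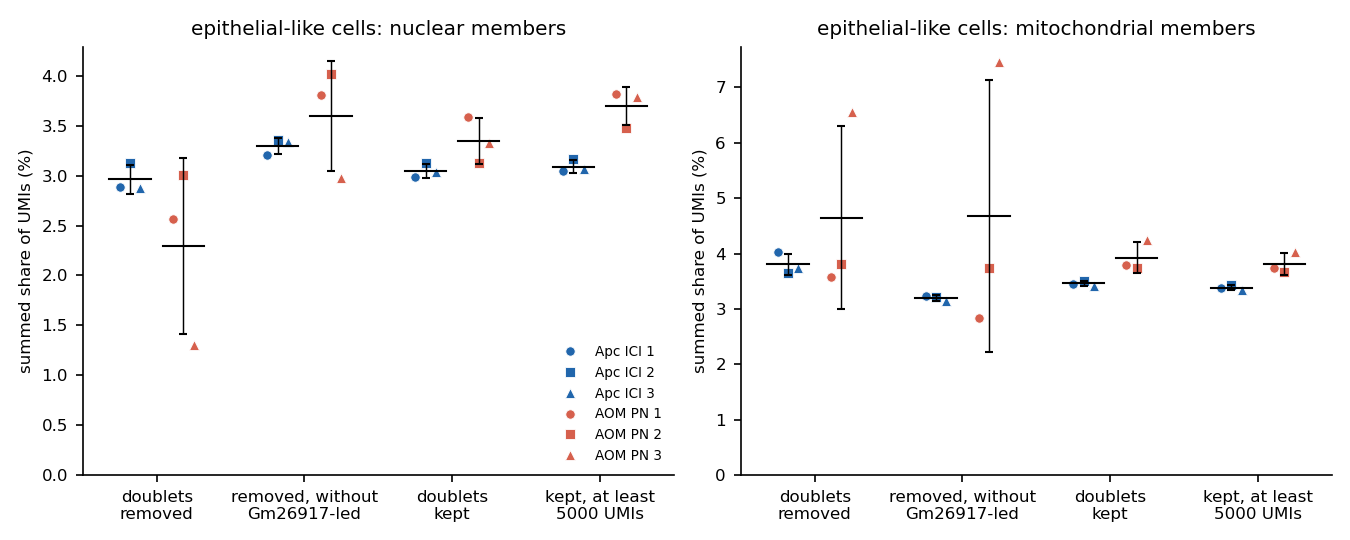
Nuclear and mitochondrial share of UMIs (percent) of epithelial-like barcodes in each library under different choices of barcodes; points are libraries coloured by group, with the group mean (line) and SD (bar). The nuclear share of AOM PN 3 is 1.30% among kept barcodes and 3.79% among barcodes of at least 5000 UMIs with doublets kept.

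The members that rose in deep epithelial barcodes came from every complex. Complex I had 25 higher and 1 lower of 38, its assembly factors 5 higher of 8, complex II 2 of 4, complex III 9 of 9, complex IV 10 of 14 and ATP synthase 13 of 16. Cytochrome c (Cycs), the mobile carrier between complexes III and IV, was at 274, 296 and 265 against 376, 482 and 382 CPM, unscaled (log2 change 0.75 ± 0.12 (SE), edgeR's quasi-likelihood adjusted p = 0.00206). The membrane subunit Atp5g1 of ATP synthase was at 481, 556 and 558 against 863, 702 and 745 CPM, unscaled (log2 change 0.72 ± 0.13 (SE), edgeR's quasi-likelihood adjusted p = 0.00404). Slc25a5 was at 557, 619 and 556 against 951, 917 and 915 CPM, unscaled (log2 change 0.87 ± 0.09 (SE), edgeR's quasi-likelihood adjusted p = 4.17e-04). Each of these 3 had its AOM PN values above all Apc ICI values. The lower nuclear members were Slc25a4, at 299, 312 and 272 against 60.98, 47.01 and 103 CPM, unscaled (log2 change -1.90 ± 0.24 (SE), edgeR's quasi-likelihood adjusted p = 9.05e-04), and Ndufa4l2, at 19.02, 23.1 and 6.21 against 2.45, 1.77 and 5.05 CPM, unscaled (log2 change -2.27 ± 0.53 (SE), edgeR's quasi-likelihood adjusted p = 0.011). These fell in both sets of barcodes. On the mitochondrial side mt-Nd2 was at 926, 932 and 938 against 1403, 1359.9 and 1661 CPM, unscaled (log2 change 0.84 ± 0.10 (SE), edgeR's quasi-likelihood adjusted p = 5.77e-04), and mt-Nd3 was the one that fell, at 462, 299 and 373 against 172, 240.4 and 243 CPM, unscaled (log2 change -0.61 ± 0.18 (SE), edgeR's quasi-likelihood adjusted p = 0.0273).

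Within the kept epithelial class, cells with almost no mitochondrial UMIs had the highest summed nuclear share, in each of the 6 libraries. Cells at no more than 0.2% mitochondrial UMIs made up 19.2% of Apc ICI cells (412) and 29.1% of AOM PN cells (595). Their nuclear share was 3.83% and 3.46%, pooled over libraries, and that of the nuclear-retained RNA Malat1 0.811% and 1.91%. Cells at 5% to 20% mitochondrial UMIs had a nuclear share of 2.17% and 1.72% and a Malat1 share of 5.89% and 5.49%. This order was not even within libraries. Cells at 0.2% to 1% and at 1% to 5% had nuclear shares of 0.822% and 1.11% in AOM PN 3, below its 1.23% at 5% to 20%, and AOM PN 2 had 1.80% at 0.2% to 1%, below its 2.12%. By the median cell, AOM PN 3 had a nuclear share of 0.632% at no more than 0.2%, below its 0.675% at 5% to 20%. In the other libraries the median cell was also highest at no more than 0.2%. Thinned to 1500 UMIs, which left out shallower cells (152, 214 and 217 in Apc ICI and 563, 274 and 255 in AOM PN), cells with at most 3 mitochondrial UMIs made up 8.81, 16.1 and 29.8% against 36.98, 30.9 and 14.5%, and the groups overlapped. When clustering left out the members, the largest epithelial sub-cluster led by Gm26917 held 24 Apc ICI and 1168 AOM PN cells, with a nuclear share of 0.768%, a mitochondrial share of 6.12% and 7.35% Malat1. A sub-cluster led by Gpx2 held 53 Apc ICI and 301 AOM PN cells with a nuclear share of 4.03%, and one led by Mt4 held 514 Apc ICI and 9 AOM PN cells with 4.16%. These sub-clusters are descriptions, and most cells of each came from 1 group.

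In neutrophil-like cells the nuclear members split, with 10 of 85 higher and 11 lower in AOM PN, against 14.8% and 17.2% of all genes. The median was 0.02, beside -0.05 over all genes, and 45 were positive. Complex I had 2 higher and 7 lower of 37, the lower share being near that of all genes, with a median of 0.0046. ATP synthase had 4 higher and 1 lower of 15, complex IV 2 higher of 11, and complexes II and III none called by edgeR. The groups filled different clusters of this class. A cluster led by Retnlg held 7.83% of Apc ICI and 67.9% of AOM PN cells, one led by the interferon-induced gene Slfn4 47.1% and 6.504%, one led by Cstb and Hmox1 29.4% and 0.941%, and one led by Il23a 15.6% and 24.7%. Every comparison in neutrophil-like cells therefore sets different clusters side by side. Pooled over libraries, haemoglobin included, the nuclear share was 0.570% and 0.579% within the Retnlg cluster. It was 0.550% and 0.596% within the Slfn4 cluster. It was lower in AOM PN within the Il23a cluster (1.14% and 0.849%) and within the cluster led by Cstb and Hmox1 (0.898% and 0.627%). Over the class, with haemoglobin left out, it was 0.814, 0.767 and 0.760 against 0.519, 0.679 and 0.722%, lower in AOM PN. Promoters are printed for Cycs and Ndufa8, which moved in opposite directions and both hold the NRF1 core GCGCATGCG, read here on the other strand as CGCATGCGC, with all matches in capitals (Cycs also holds 1 CCAAT), from the same RefSeq GRCm38.p6 table, 5′ to 3′.
Cycs promoter, chr6:50566520-50566819, minus strand: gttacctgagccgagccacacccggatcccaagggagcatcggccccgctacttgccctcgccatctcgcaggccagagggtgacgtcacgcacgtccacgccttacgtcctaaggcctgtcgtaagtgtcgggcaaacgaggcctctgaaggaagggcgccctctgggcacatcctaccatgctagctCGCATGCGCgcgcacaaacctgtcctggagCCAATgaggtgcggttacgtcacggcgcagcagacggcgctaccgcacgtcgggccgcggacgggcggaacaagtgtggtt
Ndufa8 promoter, chr2:36049289-36049588, minus strand: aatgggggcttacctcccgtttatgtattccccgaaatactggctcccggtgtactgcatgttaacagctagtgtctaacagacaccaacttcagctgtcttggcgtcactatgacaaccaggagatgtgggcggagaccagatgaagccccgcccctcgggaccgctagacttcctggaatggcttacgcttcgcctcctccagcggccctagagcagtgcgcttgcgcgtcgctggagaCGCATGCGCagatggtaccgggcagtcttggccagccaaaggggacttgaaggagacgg
Cycs was at 78.9, 85.9 and 71.8 CPM in Apc ICI 1 to 3 and at 45.9, 49.3 and 52.3 CPM in AOM PN 1 to 3 (log2 change -0.68 ± 0.15 (SE), edgeR's quasi-likelihood adjusted p = 0.00983). Ndufa8, an accessory subunit of complex I, was at 20.4, 20.4 and 31.1 CPM in Apc ICI 1 to 3 and at 56.5, 43.1 and 46.7 CPM in AOM PN 1 to 3 (log2 change 1.04 ± 0.21 (SE), edgeR's quasi-likelihood adjusted p = 0.0076). Neither gene's groups overlapped.

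Other members that rose in neutrophil-like cells were spread over complexes. Ndufaf7, a methyltransferase for assembly of complex I, was at 26.7, 30.2 and 33.96 against 74.02, 53.2 and 45.6 CPM (log2 change 0.93 ± 0.21 (SE), edgeR's quasi-likelihood adjusted p = 0.0108). Ndufb11, an accessory subunit, was at 34.8, 41.1 and 52.9 against 85.4, 70.2 and 71.1 CPM (log2 change 0.82 ± 0.19 (SE), edgeR's quasi-likelihood adjusted p = 0.0122). Atp5f1, the peripheral stalk of ATP synthase, was at 91.2, 99.8 and 105 against 192, 132 and 161 CPM (log2 change 0.71 ± 0.17 (SE), edgeR's quasi-likelihood adjusted p = 0.015). AOM PN libraries were above all Apc ICI libraries in these 3. Complex IV genes Cox6c, at 90.2, 107 and 109 against 145, 170.2 and 163 CPM, and Cox6a1, at 97.4, 109 and 98.6 against 118, 151 and 168 CPM, rose by 0.65 and 0.52 on the log2 scale, also without overlap. Atp5c1, Atp5l and Atp5j2 of ATP synthase rose by 0.48, 0.45 and 0.45.

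The members that fell included core subunits of complex I. Ndufs8, which holds iron-sulfur clusters of the peripheral arm, was at 22.8, 26.3 and 23.1 against 11.1, 11.5 and 17.4 CPM (log2 change -0.85 ± 0.21 (SE), edgeR's quasi-likelihood adjusted p = 0.0142). Ndufs3, a core subunit of the same arm, was at 15.9, 14.2 and 19.96 against 8.81, 8.20 and 11.1 CPM (log2 change -0.82 ± 0.20 (SE), edgeR's quasi-likelihood adjusted p = 0.0154). Ndufab1, the mitochondrial acyl carrier protein, was at 23.5, 25.5 and 30.9 against 14.9, 15.03 and 16.3 CPM (log2 change -0.78 ± 0.17 (SE), edgeR's quasi-likelihood adjusted p = 0.0089). The groups were apart in these 3. Ndufc2 was at 14.01, 19.3 and 16.9 against 10.1, 8.41 and 10.4 CPM (log2 change -0.81 ± 0.19 (SE), edgeR's quasi-likelihood adjusted p = 0.013). Ndufa5, Ndufc1, Ndufa6, the assembly factor Ndufaf1 (83 UMIs in all) and Atp5g2 also fell, by 0.77, 0.63, 0.48, 1.03 and 0.54 on the log2 scale.

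These neutrophil counts depended on scaling and on single libraries. Ndufa8 and Ndufab1 kept their calls under all 16 alternatives. Cycs and Ndufc2 lost theirs without Apc ICI 2 alone, Slc25a4 without Apc ICI 2 and with doublets kept, and Slc25a5 without TMM alone. Ndufaf1 was lost whichever 1 library was left out. Atp5l lost its call under 10 of the 16 alternatives, Ndufa5 under 9, and Cox6a1, Atp5j2, Ndufc1 and Ndufa6 under 8 each. Atp5g2 was lost under 7 and Atp5c1 under 6. Ndufb11, Atp5f1, Cox6c and Ndufs3 were lost under 3 each, and Ndufaf7 and Ndufs8 under 2 each. Library size without TMM moved the median of all genes to -0.49, and the share of calls that were higher from 46.3% to 10.9%, and nuclear members were then 1 higher and 22 lower. Leaving out each library in turn gave 2 to 10 higher and 2 to 9 lower. The higher count was 2 without Apc ICI 1 and 3 without Apc ICI 2, and 6 without AOM PN 2. The lower count was 2 without Apc ICI 2, 4 without AOM PN 2 and 5 without either Apc ICI 1 or Apc ICI 3. Mast markers summed to 26.8 to 95.05 CPM across Apc ICI libraries, against 284 to 2811 CPM across AOM PN libraries in this class, all 8 being higher, and epithelial markers to 145 to 219 CPM across Apc ICI libraries, against 46.5 to 95.9 CPM across AOM PN libraries. Their part was not tested.

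Mitochondrial members of neutrophil-like cells were higher in 3 of 13 and lower in 0, against 14.8% and 17.2% of all genes. Their median was 1.03, and it was 0.33 without AOM PN 1. Without TMM it was 0.51, beside a median of -0.49 over all genes. mt-Nd4, a core membrane subunit of complex I, was at 193, 169 and 209.5 CPM in Apc ICI 1 to 3 and at 712, 261 and 277 CPM in AOM PN 1 to 3 (log2 change 1.13 ± 0.36 (SE), edgeR's quasi-likelihood adjusted p = 0.0395). mt-Nd2 was at 104, 87.8 and 110.3 against 395, 128 and 146 CPM (log2 change 1.14 ± 0.39 (SE), edgeR's quasi-likelihood adjusted p = 0.0487) and mt-Nd5 at 47.6, 48.2 and 58.9 against 166, 71.3 and 77.4 CPM (log2 change 1.02 ± 0.31 (SE), edgeR's quasi-likelihood adjusted p = 0.0324). AOM PN 1 was far above the other AOM PN libraries in each. The log2 ratio of the mitochondrial share was 0.44, and -0.05 without AOM PN 1. Counts of calls were 0 without Apc ICI 1, 0 without Apc ICI 2, 1 without Apc ICI 3, 2 without AOM PN 1, 10 without AOM PN 2 and 6 without AOM PN 3. DESeq2 called 9, and without TMM none passed.

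**Figure D5:**
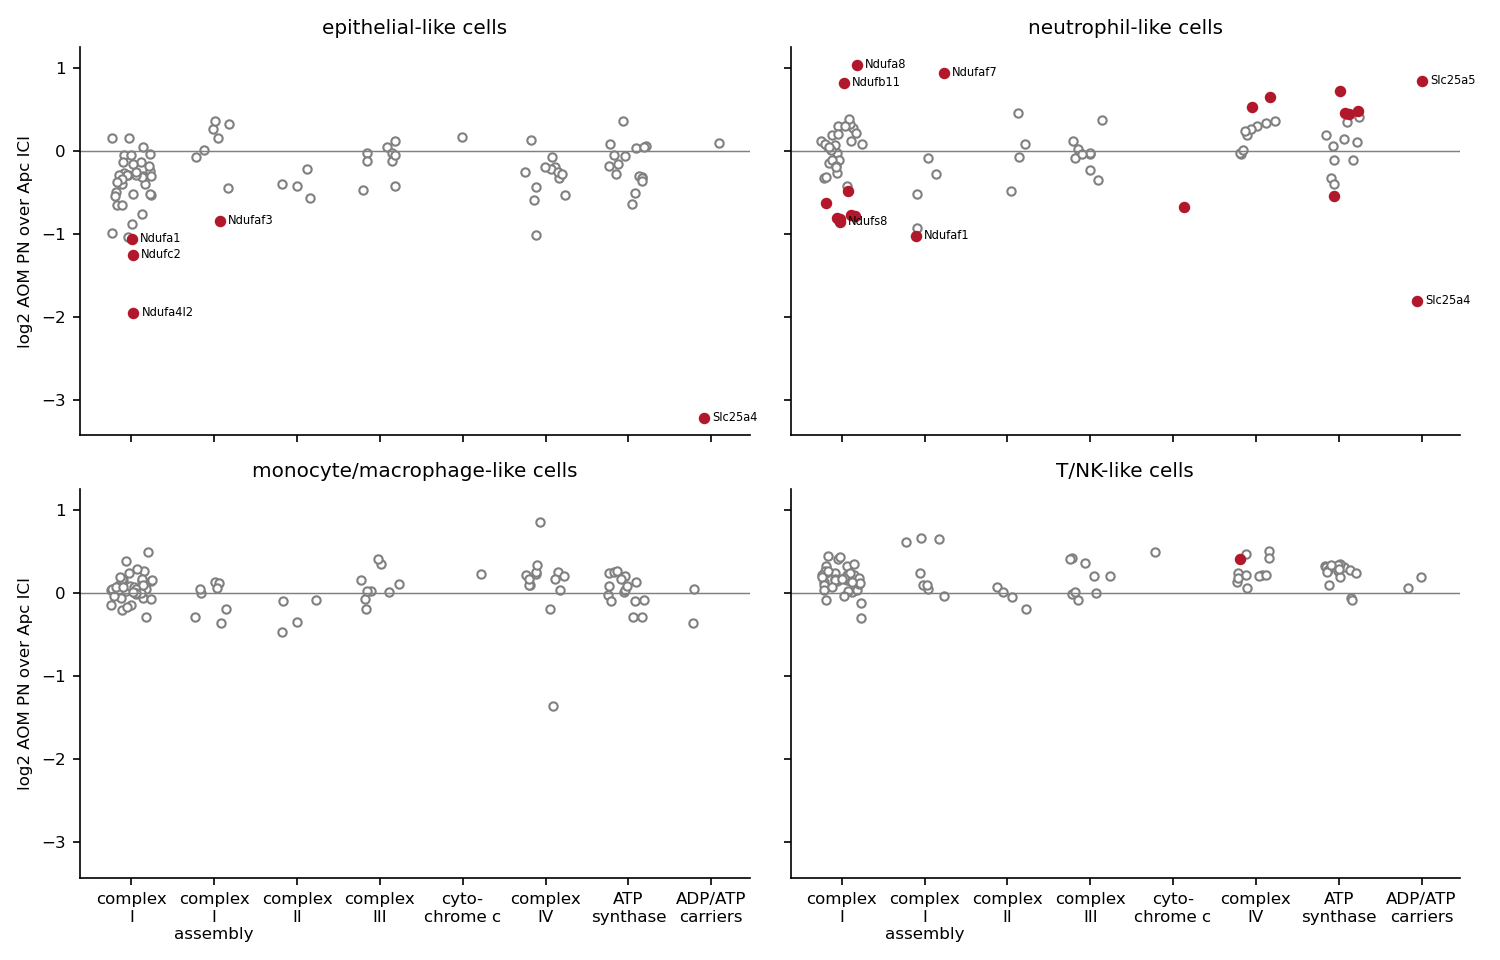
Difference between AOM PN and Apc ICI (log2, edgeR fit) for each nuclear member tested, by complex with random sideways spread, in epithelial-like, neutrophil-like, monocyte/macrophage-like and T/NK-like cells; filled marks passed adjusted p 0.05. Slc25a4 in epithelial-like cells is the lowest point, at -3.21, and most T/NK-like points are above 0.

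Monocyte/macrophage-like cells showed no nuclear member past the threshold. edgeR called 0 of 91 higher and 0 lower, against 1.50% and 2.26% of all genes, with 10 at an unadjusted p under 0.05, while DESeq2 called 2 higher. The median was 0.06, beside -0.02 over all genes. Ndufa4 was at 179, 196 and 238 against 329, 279 and 256 CPM (log2 change 0.50 ± 0.15 (SE), edgeR's quasi-likelihood adjusted p = 0.0921), with no overlap. Without TMM the median of all genes moved to -0.19 and the share of calls that were higher from 39.9% to 16.4%.

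T/NK-like cells had 1 of 89 nuclear members higher and 0 lower, against 1.09% and 1.26% of all genes, with most members slightly up. The gene was Cox8a, the small subunit of complex IV, at 865, 857 and 846 CPM in Apc ICI 1 to 3 and at 1152, 1083 and 1175 CPM in AOM PN 1 to 3 (log2 change 0.41 ± 0.09 (SE), edgeR's quasi-likelihood adjusted p = 0.049996). Its groups were apart, and its call was lost whichever 1 of the 6 libraries was left out. Of the 89 members 78 were positive, with a median of 0.20 beside -0.00 over all genes, 27 had an unadjusted p under 0.05, and DESeq2 called 7 higher. The ribosomal RNA-like transcript Gm42418 was called lower in this class (9764, 7934 and 6834 against 4237, 4839 and 4662 CPM, log2 change -0.84), as it was in B-like cells, and its part in the shift was not tested. Cox7a2, another small subunit of complex IV, was at 438, 375 and 388 against 578, 568 and 525 CPM (log2 change 0.48 ± 0.10 (SE), edgeR's quasi-likelihood adjusted p = 0.0524), and Cycs at 171, 155 and 156 against 183, 272 and 224 CPM (log2 change 0.49 ± 0.15 (SE), edgeR's quasi-likelihood adjusted p = 0.123). Neither passed, though both had AOM PN above all Apc ICI values. Mitochondrial members were 0 of 13 higher and 0 lower (edgeR), with 3 at an unadjusted p under 0.05 and 1 lower by DESeq2. Without TMM the share of calls over all genes that were higher moved from 46.5% to 31.5%.

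The smaller classes gave no member past the threshold by edgeR's quasi-likelihood test. Dendritic-like cells had 0 of 90 nuclear and 0 of 13 mitochondrial members, against 0.424% of all genes in either direction, with 9 and 2 at an unadjusted p under 0.05, and DESeq2 called 2 members. B-like cells had 0 of 83 nuclear and 0 mitochondrial members, against 0.882%, with 5 and 2 at an unadjusted p under 0.05, and DESeq2 called 1. Erythroid-like cells had 0 of 71 nuclear and 0 mitochondrial members, against 3.44%, with 1 and 1, and DESeq2 called 0.

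Tissue isoforms of complex IV and of the ATP synthase ring took shares that ranged widely over the classes. The testis isoform Cox6b2 took 67.04, 48.6 and 69.3% against 59.03, 72.2 and 54.3% of the Cox6b pair in erythroid-like cells, with overlap between the groups. In monocyte/macrophage-like cells its share was 1.62, 0.989 and 1.33% against 2.24, 1.97 and 2.40%, higher in each AOM PN library. The muscle isoform Cox6a2 took 13.96, 0 and 26.8% against 0, 31.1 and 0.564% of its pair in dendritic-like cells, with AOM PN 2 and Apc ICI 3 the high libraries and 2 libraries at 0. Of its 1181 UMIs in the class, 1167 lay in 1 cluster of 77 cells led by Ly6d, Siglech and Bst2, so the value is that of this cluster. Cox7a2l, the supercomplex factor related to Cox7a2, took 45.3, 45.7 and 42.9% against 40, 33.4 and 37.6% of that pair in dendritic-like cells and 35.9, 43.5 and 41.2% against 35.1, 30.7 and 34.2% in T/NK-like cells. AOM PN was lower in both without overlap. Atp5g2, which encodes the same ring subunit as Atp5g1, took 57.8, 56.1 and 56.7% against 47.7, 45.7 and 51.3% of their UMIs in epithelial-like cells, lower in AOM PN. The share of Cox4i2 (the hypoxia-responsive isoform) did not exceed 0.497% in any library of the 7 classes. A share of a pair is a description and carries no test.

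Whether a member's change differed between classes was tested as an interaction of class and group. Between neutrophil-like and epithelial-like cells 7 of 92 nuclear members had a more positive and 1 a more negative change, and 0 of 13 mitochondrial members differed (0 at an unadjusted p under 0.05), against 17.9% of all genes. Between monocyte/macrophage-like and epithelial-like cells 6 of 92 nuclear and 0 mitochondrial members differed, against 16.5%, with 20 and 0 at an unadjusted p under 0.05. Between monocyte/macrophage-like and neutrophil-like cells 8 of 91 nuclear members were more positive and 3 more negative, and 0 mitochondrial members differed (10 at an unadjusted p under 0.05), against 15.7%. The nuclear counts sat below the background of all genes each time. The members are named in the closing section, and Slc25a4 was among them in all 3 tests. With doublets kept in both classes 13, 14 and 7 members were called, and 2 of the 8, 4 of the 6 and 7 of the 11 remained.

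Genes around the chain were read from lists chosen with these members in view. In epithelial-like cells 1 of 39 assembly factors outside the symbol rule rose and 2 fell, against 18.5% and 15.5% of all genes. Sdhaf4, which helps to assemble complex II, fell (55.5, 54.8 and 58.8 against 22.3, 32.9 and 9.81 CPM, log2 change -1.28), and so did the complex I factor Nubpl. Of 25 genes of mitochondrial gene expression and biogenesis 2 rose and 1 fell. The coactivator Ppargc1a, a known driver of mitochondrial biogenesis, fell (28.6, 22.6 and 17.1 against 8.48, 11.2 and 5.89 CPM, log2 change -1.33), and its relative Ppargc1b rose (4.30, 4.55 and 3.01 against 20.1, 18.9 and 37.3 CPM, log2 change 2.57). Both pairs of groups were apart. Of 77 mitochondrial ribosome genes 1 rose and 0 fell, of 17 in the tricarboxylic acid cycle and 23 in import and cristae none was called by edgeR, and of 14 in glycolysis 3 rose, near the share of all genes. Hexokinase Hk2, which starts glycolysis, was at 94.7, 79.4 and 73.1 against 185, 231 and 364 CPM, log2 change 1.65. In deep epithelial barcodes with doublets kept, 48 of 77 mitochondrial ribosome genes, 17 of 23 in import and cristae and 37 of 77 cytosolic ribosomal protein genes rose and 0 of each fell, against 21.8% higher and 21.3% lower of all genes.

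In neutrophil-like cells the lists of mitochondrial ribosome, import, assembly and gene expression genes each had more members lower than higher, where 14.8% of all genes were higher and 17.2% lower. Without TMM, 376 of all genes were higher and 3081 lower. Of 74 mitochondrial ribosome genes 2 rose and 23 fell, with a median of -0.51. Mrps18b, a small subunit protein, was at 6.80, 7.81 and 8.23 against 1.85, 1.22 and 1.64 CPM, log2 change -2.30. Import and cristae genes had 2 higher and 8 lower of 22. The import receptor Tomm20 was at 137, 159 and 142 against 47.2, 57.7 and 58.5 CPM, log2 change -1.42, and the mitochondrial chaperone Hspa9 at 48.002, 41.1 and 41.6 against 15.9, 16.2 and 12.6 CPM, log2 change -1.55. AOM PN was lower without overlap in these 3 genes. Assembly factors outside the rule had 7 lower of 33, near that share, and gene expression and biogenesis 6 lower of 19, with 0 higher in each by edgeR. Glycolysis had 3 higher and 1 lower of 14, and the tricarboxylic acid cycle 3 higher and 2 lower of 17. In T/NK-like cells 4 of 77 mitochondrial ribosome genes and 9 of 78 cytosolic ribosomal protein genes rose and 0 of each fell, against 1.09% and 1.26% of all genes, and the mitochondrial chaperonin Hspe1 rose (298, 243 and 307 against 612, 657 and 394 CPM, log2 change 0.97).

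Promoter sequences were searched for 6 motifs on both strands in 82 windows of 300 bases, which cover 77 of 96 nuclear member symbols, and in all 32851 windows of the RefSeq table. The NRF1 core GCGCATGCG was in 11 member windows (13.4%) and 1.75% of all windows. The ETS/GABPA core CCGGAAG was in 19 (23.2%) and 8.86%, and the YY1 core CAAGATGGC in 6 (7.32%) and 1.24%. The ERR element TCAAGGTCA was in 2 (2.44%) and 0.423%. The E-box CACGTG was in 7.32% and 7.15%, and CCAAT in 43.9% and 37.4%, so these last 2 were near the background. A match is a description of letters in a window, and it was not tested against expression.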

How the data were processed

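Per the submitters' processing notes, reads were processed with Cell Ranger 6.1.2 against mm10; the authors deposited filtered UMI counts per gene and barcode, and these counts were used as deposited. Members and gene lists were chosen with earlier results of these data known. Kept barcodes had 200 or more genes and no more than 20% mitochondrial UMIs, leaving 4726 to 11399 per library. Doublets were scored per library by the share of simulated doublets among nearest neighbours, and the highest scores were removed at a preset 0.8% per 1000 barcodes (275 to 1507 barcodes a library). Clustering used scanpy 1.11.5 and leidenalg 0.10.2 (2000 variable genes, 30 principal components, 20 neighbours, resolution 1), and clusters were named from marker lists.

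Counts were summed per library and class with at least 20 cells and tested by edgeR 4.0.16 (R 4.3.3; TMM, filterByExpr, quasi-likelihood, Benjamini-Hochberg over all genes in the class, threshold 0.05). The test was checked on simulated counts. It recovered 11% (erythroid-like) to 48% (monocyte/macrophage-like) of 2-fold changes, 23% in epithelial-like cells, and 75% to 92% of 4-fold changes. False calls were 2.82% to 9.72% of calls. The test between classes recovered 5% to 25% of 2-fold and 76% to 85% of 4-fold changes. A member that was not called may therefore still have changed 2-fold. Summed shares, transcript mixes and isoform shares were not tested. Pairs of libraries of 1 group differed beyond sampling noise, with a chi-square per degree of freedom of at least 4.29.

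Alternatives were DESeq2 1.42.0, no TMM, no filter on low counts, other mitochondrial cutoffs, doublets kept, thinning to 1500 UMIs, clustering without members, a replicate block and leaving out each library; barcodes of at least 5000 UMIs with doublets kept, for epithelial-like cells, and doublets kept in the test between classes were added after seeing the data. Named genes were the 13 mitochondrial members, 19 nuclear members by role, isoform pairs, and up to 5 called nuclear members per direction with a mean of at least 5 CPM in each of 4 main classes; other names were chosen after values were seen. Of lists, up to 4 called examples could be named. Mast-like cells were left out for low numbers. Replicate numbers in the labels say nothing of shared animals or days. Promoters came from RefSeq (GRCm38.p6) and mitochondrial coding ends from GENCODE vM21.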

Additional observations from a re-analysis of the deposited data

Results flagged for a closer look

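A test of the interaction between cell class and group (edgeR's quasi-likelihood test with a term for library, adjusted over all genes tested) found 25 differences in the AOM PN minus Apc ICI change between 2 classes. Values are differences in log2 change with SE, and the genes were chosen by this test after their values were seen. Their causes were not tested.

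Against epithelial-like cells, neutrophil-like cells had a more positive change in 7 nuclear members. The carrier Slc25a4 differed by 1.50 ± 0.47, having fallen less in neutrophil-like cells. Complex I subunits Ndufb11, Ndufs4, Ndufa8 and Ndufa1 differed by 1.48 ± 0.38, 1.36 ± 0.39, 1.27 ± 0.40 and 1.22 ± 0.37. The complex IV gene Cox6c differed by 1.45 ± 0.42 and the assembly factor Ndufaf7 by 1.44 ± 0.34. In the opposite direction the assembly factor Ndufaf6 differed by -2.02 ± 0.65. edgeR's adjusted p ran from 0.00737 to 0.0403 over these 8. With doublets kept in both classes, a choice made after seeing the data, Ndufaf7 (0.97) and Ndufaf6 (-2.19) passed, and the other 6 (0.37 to 0.95) did not, with edgeR's adjusted p from 0.0548 to 0.306. Of the 8, only Ndufaf7 kept its call under all 9 alternatives. Ndufaf6 lost its call without Apc ICI 1, 2 or 3 or AOM PN 1 or 2. Slc25a4 also lost its call without TMM and without Apc ICI 1 or 3 or AOM PN 1 or 3.

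Between monocyte/macrophage-like and epithelial-like cells, Slc25a4 differed by 2.96 ± 0.31 (edgeR's quasi-likelihood adjusted p = 0.000397). Ndufa4l2 differed by 5.47 ± 1.18, on very few monocyte/macrophage UMIs. The testis isoform Cox6b2 differed by 1.97 ± 0.40, Ndufa4 by 1.84 ± 0.41, Ndufa1 by 1.33 ± 0.35 and Ndufaf3 by 1.11 ± 0.34. All 6 were more positive in monocyte/macrophage-like cells. With doublets kept Slc25a4 (1.90), Ndufa4l2 (4.81), Ndufa4 (0.78) and Ndufa1 (0.47) passed, and Cox6b2 (1.26) and Ndufaf3 (0.51) did not. Only Slc25a4 kept its call under all 9 alternatives. Ndufa1 lost its call without Apc ICI 1, 2 or 3 or AOM PN 1, Ndufa4 without Apc ICI 1, and Ndufa4l2 without Apc ICI 2 or AOM PN 2.

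Between monocyte/macrophage-like and neutrophil-like cells, 8 members were more positive in the former. Slc25a4 differed by 1.43 ± 0.32, cytochrome c (Cycs) by 0.92 ± 0.17 (edgeR's quasi-likelihood adjusted p = 0.00461), and core complex I subunits Ndufs3 and Ndufs8 by 0.87 ± 0.19 and 0.81 ± 0.20. Ndufab1, Ndufc1, Ndufa6 and Ndufc2 differed by 0.75 ± 0.19, 0.72 ± 0.19, 0.64 ± 0.19 and 0.63 ± 0.18. The members more positive in neutrophil-like cells were Ndufa8 at -0.89 ± 0.23, Ndufaf7 at -0.86 ± 0.22 and Slc25a5 at -0.79 ± 0.18. With doublets kept Slc25a4 (0.89), Ndufc1 (0.60), Ndufc2 (0.46) and Ndufaf7 (-0.71) did not pass. Cycs and Ndufs3 kept their calls under all 9 alternatives, and each of the others lost its call under at least 2. These 3 pairs of classes share libraries and are not independent of each other.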

How the results depend on the processing

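These counts come from 3 libraries a group, and depth limits members on few UMIs, such as Slc25a4 and Ndufaf1 in neutrophil-like cells (225 and 83 UMIs in all); the causes of the shifts below were not tested. Results are counts of members called, given as the reported value followed by alternatives.

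In epithelial-like cells, nuclear members higher went from 0 to 30 with doublets kept, 19 without sub-clusters led by Gm26917 and 66 in barcodes of at least 5000 UMIs with doublets kept (0 to 7 leaving out each library). Nuclear members lower went from 5 to 8 without TMM, 9 with no filter, 3 at most 10% mitochondrial UMIs, 8 with no mitochondrial cutoff, 9 thinned, 2 without those sub-clusters and 2 in deep barcodes (1 to 10 leaving out each library). Mitochondrial members higher went from 2 to 5 by DESeq2, 1 without TMM, 1 with no filter, 1 at 10%, 8 with no cutoff, 7 with doublets kept, 0 thinned, 7 without the sub-clusters and 9 in deep barcodes (1 to 4 leaving out each library). Mitochondrial members lower went from 0 to 1 by DESeq2, with no filter, at 10%, with doublets kept, thinned and in deep barcodes (0 to 1 leaving out each library).

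In neutrophil-like cells, nuclear members higher went from 10 to 1 without TMM (2 to 10 leaving out each library), and lower from 11 to 7 by DESeq2 and 22 without TMM (2 to 9). Mitochondrial members higher went from 3 to 9 by DESeq2, 0 without TMM, 12 with no filter, 11 with no cutoff, 5 with doublets kept and 0 thinned (0 to 10).

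In monocyte/macrophage-like cells, nuclear members higher went from 0 to 2 by DESeq2 and 2 with no filter, nuclear lower from 0 to 1 with no filter, and mitochondrial lower from 1 to 0 at 10% (0 to 1 leaving out each library). In T/NK-like cells, nuclear members higher went from 1 to 7 by DESeq2, 0 without TMM, 9 with no filter and 0 at 10%. They were 0 with no cutoff, 4 with doublets kept and 2 thinned. They were 0 with members left out of clustering and 0 with mitochondrial genes left out of the fit (0 to 1 leaving out each library). Mitochondrial members lower went from 0 to 1 by DESeq2, with no filter and with doublets kept (0 to 1). Dendritic-like members went from 0 to 2 by DESeq2, 2 with no filter and 1 thinned (0 to 1), and B-like members from 0 to 1 by DESeq2 and with no filter (0 to 1).

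The replicate block fits library number as a term. Correlations of same-numbered libraries had both signs and ran from -0.44 to 0.25. These values do not settle whether the numbers pair the libraries, and the labels do not say. With the block, epithelial-like mitochondrial members higher were 1, neutrophil-like nuclear 6 higher and 7 lower and mitochondrial 1 higher, monocyte/macrophage-like mitochondrial lower 0 and T/NK-like nuclear higher 0.

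Log2 ratios of summed shares moved as follows. The epithelial-like mitochondrial share (0.29) was -0.20 at 10% and 1.06 with no cutoff. The dendritic-like nuclear share (0.02) was 0.082 thinned and its mitochondrial share (-0.24) was -0.62 thinned. The B-like mitochondrial share (-0.14) was -0.017 at 10% and -0.022 thinned. Interactions called between neutrophil-like and epithelial-like cells went from 8 to 5 without TMM and 13 with doublets kept (2 to 17 leaving out each library), between monocyte/macrophage-like and epithelial-like from 6 to 14 with doublets kept (3 to 17), and between monocyte/macrophage-like and neutrophil-like from 11 to 20 without TMM and 7 with doublets kept (3 to 10).

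The log2 change of mt-Nd3 reversed in epithelial-like cells with no cutoff (0.013). In neutrophil-like cells it was 0.02, and it was -0.49 without TMM, -0.15 at 10%, -0.57 thinned, -0.026 with the replicate block, -0.22 without Apc ICI 2 and -0.40 without AOM PN 1, the range leaving out each library being -0.40 to 0.26. Over all results and alternatives 954 values were labelled the same, 252 weaker, 121 moved, 19 stronger and 7 reversed. For single genes, the same means an unchanged direction and side of the threshold. Weaker means a lost call and stronger a gained one. For counts, the same means within a set ratio of the reported count. For summed shares, which carry no test, it means within the spread between libraries.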
